A study of Drosophila melanogaster with 42 samples.

Results

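Fat is a giant atypical cadherin of the Drosophila wing disc, the epithelium of the larva that becomes the adult wing and notum. It binds the cadherin Dachsous on the neighbouring cell, and its intracellular domain acts on 2 outputs. Through the myosin Dachs it feeds the Hippo kinase cascade, which holds back the transcriptional coactivator Yorkie and so limits growth. It also takes part in planar cell polarity, the common orientation of cells within the sheet. The series profiled RNA of third-instar wing discs carrying changes in the intracellular domain of Fat, and the libraries described here are those labelled delta A, a line changed in conserved region A. They were chosen by label: the 4 delta A libraries and the 3 wild type libraries run on the same sequencer, a NovaSeq 6000, which makes 7 of the 42 libraries deposited. The library names of the wild type carry the strain designation w1118.csvd111. The labels give no second allele, treatment, sex or exact age, do not say which residues region A covers, and do not say whether replicates came from separate cultures or larvae. P-values therefore measure a spread between libraries, which may be technical. Those by edgeR take that spread from all groups of the fit, not from these 7 libraries alone.

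Libraries were made from 10 ng of total RNA with 12 to 15 cycles of amplification, per the labels' protocols, and the 7 libraries held 19538208 to 31718937 estimated counts each. The wild type libraries carried 1.07%, 0.842% and 1.52% of their counts on the 46 symbols that contain rRNA. In delta A those shares were 13.9%, 15.1%, 17.2% and 15.0%. The groups did not overlap, with means of 15.3% ± 1.38 (SD, n = 4) and 1.14% ± 0.343 (SD, n = 3), a difference of 14.2 percentage points. A two-sided exact permutation test gave p = 0.0571, the smallest that 4 against 3 libraries allow. With the 2 mitochondrial rRNA symbols left out the means were 14.6% and 0.836%. Because every delta A library lay above 3% and every wild type library of the NovaSeq 6000 below it, the genotype and the rRNA share cannot be told apart within these 7 libraries. Of the other groups, the 2 wild type libraries run on a NovaSeq X Plus carried 17.4% and 17.1%. The 3 libraries of delta C, changed in conserved region C, carried 5.11% to 8.04%, and the 3 of delta F, changed in region F, 10.5% to 11.8%. These groups serve below as further references.

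**Figure D1:**
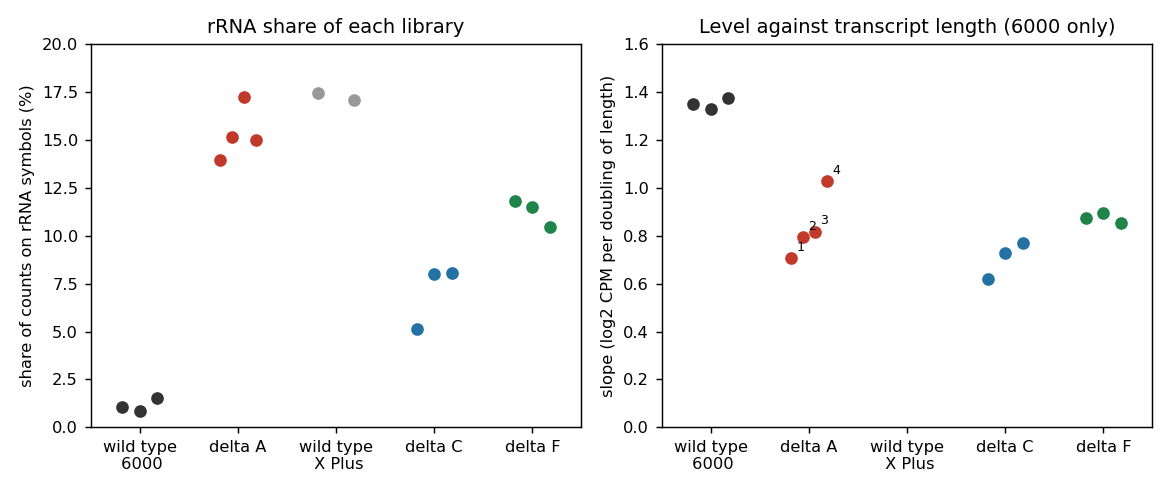
Left, share of counts on rRNA symbols in percent for each library of 5 groups; right, slope of log2 CPM on log2 transcript length for the libraries of the NovaSeq 6000, with the delta A replicates numbered. The 4 delta A libraries sit at 13.9% to 17.2% on the left, beside the wild type of the X Plus, and on the right all delta A slopes lie below those of the wild type.

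Another property differed between libraries of the NovaSeq 6000 below and above an rRNA share of 3%. Above 3% it did not follow that share. The level of a gene rose with the length of its longest annotated transcript by 1.33 to 1.38 log2 units per doubling of length in the wild type, and by 0.708, 0.793, 0.817 and 1.03 in delta A replicates 1 to 4. In delta C, at an rRNA share of 5.11% to 8.04%, this slope was 0.621 to 0.769. In delta F, at 10.5% to 11.8%, it was 0.855 to 0.897. A like rRNA share therefore does not by itself mean a like slope. The change between delta A and the wild type of the NovaSeq 6000 was graded with transcript length. Among the decile of genes with the shortest transcripts the median log2 change was 0.78, and 46.9% of them rose while 9.73% fell. Among the decile with the longest transcripts it was -1.29, with 5.56% up and 67.3% down. Against the wild type of the X Plus the same deciles had medians of -0.02 and 0.04. Against delta C the gradient ran the other way, from -0.16 to 0.79, and against delta F the outermost deciles stood at 0.14 and 0.42. Whether the length gradient or the rRNA share sets any single gene's change was not tested.

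**Figure D2:**
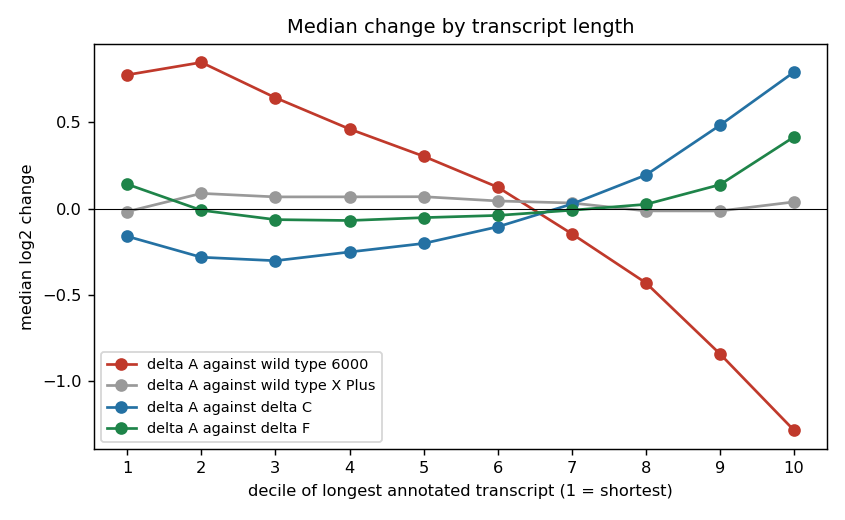
Median log2 change in delta A (vertical axis) for deciles of the tested genes ordered by longest annotated transcript (horizontal axis), against 4 references. The line against the wild type of the NovaSeq 6000 falls from 0.78 to -1.29, while the line against the wild type of the X Plus stays between -0.02 and 0.09.

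Delta A replicate 4 stood apart from the rest of its group. Over all genes tested, Spearman's rho was 0.981 to 0.989 among replicates 1 to 3 and 0.945 to 0.954 between them and replicate 4. For comparison, replicates 1 to 3 reached 0.940 to 0.957 with delta F, and replicate 4 was nearer to the wild type (0.913 to 0.918) than they were (0.853 to 0.887). Values of single libraries are therefore given for the genes described in full, and the counts it moved most are repeated without it.

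In one fit of the 21 libraries of the NovaSeq 6000, 6041 of 10338 genes differed between delta A and its wild type (58.4%, edgeR quasi-likelihood test, Benjamini-Hochberg adjusted p under 0.05). Of these, 3139 rose (30.4%) and 2902 fell (28.1%), and the median change over all genes was 0.05 on the log2 scale. Without delta A replicate 4 the count was 6097. The wild type, delta A, delta C and delta F each lie wholly on 1 side of an rRNA share of 3%, but delta B and delta E, changed in regions B and E, have libraries on both sides, so the side can enter the fit as a term. The term rests on delta B replicate 4, at 0.792%, and delta E replicate 4, at 10.8%, each alone on its side within its group. Spearman's rho of the first was 0.994 with wild type replicate 1 and at most 0.923 within its group. That of the second was 0.993 to 0.994 with delta F and 0.910 to 0.911 within its group. With that term 436 genes passed. Without it, the gap between these 2 libraries and their groups enters the spread behind the p-values and SEs of the fit. When the 2 wild type libraries of the X Plus, whose rRNA share is like that of delta A, served as the reference in a fit of the 21 libraries of the series above 3%, 1202 of 11055 genes passed (10.9%), 673 up (6.09%) and 529 down (4.79%). In a fit of all 42 libraries the same contrast gave 12 calls of 11294 genes, and in a fit of those 2 groups alone 111, so what is said below to pass against the X Plus wild type holds for the fit of libraries above 3%. The count of 1202 rose to 2037 without delta A replicate 4. Without the first or second wild type library it was 358 or 205, so it depends on which libraries are kept. It also crosses 2 sequencers, and a sequencer difference and a genotype difference cannot be told apart there. The accounts that follow give both comparisons side by side for most lists. Both share the 4 delta A libraries. Their fits differ in the common coefficient of variation between libraries. It was 39.4% in the fit of the 21 libraries of the NovaSeq 6000 and 26.5% in that of libraries above 3%. List counts are to be read beside the shares over all genes, 30.4% up and 28.1% down against the first wild type and 6.09% and 4.79% against the second. A list near those shares does not stand out.

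The fat gene itself (FBgn0001075, 2L:4198404-4221796 in the dm6 build) remained transcribed in delta A. Its levels, in CPM (counts relative to the scaled library total), were 464, 591 and 677 in the wild type and 279, 319, 322 and 511 in delta A. Replicate 4 lay within the wild type range and the other 3 below it, so the groups overlapped. The log2 change was -0.72 (SE 0.28, edgeR adjusted p = 0.036). Against the wild type of the X Plus, at 371 and 328 CPM, it was 0.08 (SE 0.19, edgeR adjusted p = 0.82). A deletion inside the coding sequence cannot be seen in a total per gene, so these levels do not check the genotype.

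All 9 genes of the Fat and Dachsous pathway list passed against the wild type of the NovaSeq 6000, 7 lower and 2 higher, with a median log2 change of -1.56. None of the 9 passed against the wild type of the X Plus, where the median was 0.09. Without replicate 4 that second comparison called 1 higher and 3 lower. Against the wild type of the NovaSeq 6000 with the rRNA side as a term, none of the 9 passed (median 0.08). With the trend of level on transcript length removed, 2 rose and 5 fell (median -0.41). Over all genes tested, 4.22% passed with that term and 47.2% with the length trend removed. The ligand gene ds (FBgn0284247, 2L:640013-714983) stood at 1551, 1413 and 1687 CPM in the wild type and 197, 223, 248 and 459 in delta A. The groups were far apart, and replicate 4 was the highest of delta A. Its log2 change was -2.49 (SE 0.71, edgeR adjusted p = 0.0078), against 0.28 (SE 0.25, edgeR adjusted p = 0.50) with the X Plus reference at 253 and 226 CPM.

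The same held downstream of Fat. For d, which encodes the myosin Dachs, levels were 703, 734 and 655 CPM in the wild type and 167, 187, 188 and 287 in delta A. No delta A library reached the wild type, and the log2 change was -1.78 (SE 0.32, edgeR adjusted p = 0.00091); the X Plus reference gave -0.18 (SE 0.18, edgeR adjusted p = 0.55). The gene app encodes the palmitoyltransferase Approximated, which acts on Fat and Dachs, and its log2 change was -1.56 (SE 0.29, edgeR adjusted p = 0.0010) against -0.14 (SE 0.12, edgeR adjusted p = 0.49) with the second reference. For fj, the Golgi kinase Four-jointed that phosphorylates Fat and Dachsous, the values were 287, 300.1 and 388 CPM in the wild type and 190.1, 221, 219.7 and 283 in delta A. These groups came close to touching, at 283 and 287 CPM, and the change was -0.54 (SE 0.21, edgeR adjusted p = 0.032).

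Casein kinase gene dco, whose product Discs overgrown phosphorylates the Fat intracellular domain, had the steepest fall of the list. Its levels were 208, 221 and 257 CPM in the wild type and 13.6, 16.04, 15.3 and 35.7 in delta A, a log2 change of -3.53 (SE 0.78, edgeR adjusted p = 0.0023). The wild type of the X Plus lay at 14.2 and 13.2 CPM, within or just below the first 3 delta A libraries, and the change against it was 0.61 (SE 0.34, edgeR adjusted p = 0.27). Fbxl7, an F-box protein gene that acts downstream of Fat, stood at 66.3 to 72.7 CPM in the wild type, at 7.74, 8.09, 8.01 and 39.1 in delta A and at 7.15 to 8.23 in the X Plus wild type. Here delta A replicate 4 alone left the low level that the other 3 shared with the X Plus libraries.

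The 2 genes of the list that rose were lft, whose product Lowfat binds Fat and Dachsous, and Dlish, whose product links Fat to Dachs. Levels of lft were 66.0, 64.4 and 70.2 CPM in the wild type and 170.1, 175, 161 and 109.9 in delta A, and those of Dlish 71.9, 84.5 and 72.9 and 165, 166, 151 and 109.6. All delta A libraries were above all wild type libraries for both. The log2 changes were 1.16 (SE 0.19, edgeR adjusted p = 0.00061) and 0.91 (SE 0.20, edgeR adjusted p = 0.0021). Against the X Plus wild type they were 0.09 (adjusted p = 0.71) and 0.13 (adjusted p = 0.53), both by edgeR.

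**Figure D3:**
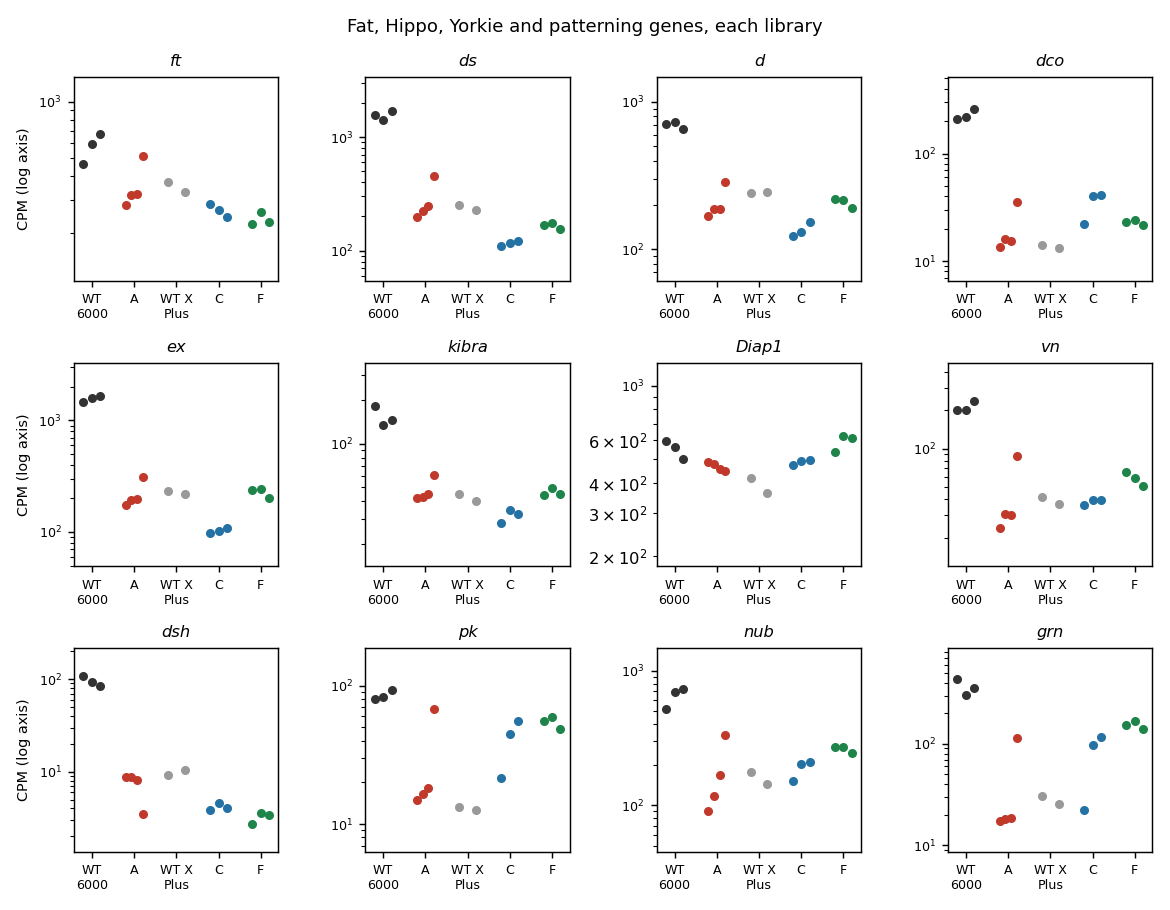
CPM on a log axis for 12 genes, 1 point per library, in the wild type of the NovaSeq 6000, delta A, the wild type of the X Plus, delta C and delta F. For ds, ex and d, delta A lies beside the X Plus wild type and far below the wild type of the NovaSeq 6000, and for pk and grn delta A replicate 4 lies above the other 3.

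Of 17 Yorkie targets, genes whose transcription Yorkie is known to raise, 16 were tested. Against the wild type of the NovaSeq 6000, 13 fell and none rose, with a median log2 change of -1.24. With the X Plus reference 1 fell, none rose and the median was 0.01. Without replicate 4 that count was 6 down. Against the wild type of the NovaSeq 6000 with the rRNA side as a term, none of the 16 passed (median -0.24). With the length trend removed 2 rose and 9 fell (median -0.47). The feedback target ex (FBgn0004583, 2L:431227-448701) encodes Expanded, an upstream activator of the Hippo kinases. It measured 1458, 1583 and 1649 CPM in the wild type and 176, 193, 197 and 313 in delta A, a wide gap with no overlap. The log2 change was -2.86 (SE 0.54, edgeR adjusted p = 0.0012). The X Plus wild type gave 231 and 218 CPM, inside the delta A range, and a change of 0.02 (SE 0.18, edgeR adjusted p = 0.97).

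The other feedback target, kibra (FBgn0262127, 3R:14697689-14724261), encodes a scaffold that works with Expanded. It stood at 183, 135 and 147 CPM in the wild type and at 41.8, 43.0, 44.6 and 60.9 in delta A, again without overlap. Its change was -1.73 (SE 0.35, edgeR adjusted p = 0.0016), and 0.22 (SE 0.19, edgeR adjusted p = 0.49) against the X Plus libraries at 44.7 and 39.8 CPM. The survival target Diap1, an inhibitor of caspases, moved least among those called. Its levels were 596, 562 and 502 CPM in the wild type and 485, 478, 456 and 449 in delta A, a change of -0.28 (SE 0.10, edgeR adjusted p = 0.028). Against the X Plus wild type, at 419 and 363 CPM, the sign was opposite, at 0.30 (SE 0.10, edgeR adjusted p = 0.080).

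Growth and cell cycle targets varied. CycE, which encodes the cyclin that drives entry into S phase, fell by 0.91 on the log2 scale (edgeR adjusted p = 0.00061) and stood 0.04 from the X Plus wild type (edgeR adjusted p = 0.88). E2f1, the transcription factor of the same step, measured 290.3, 282 and 324 CPM in the wild type and 62.6, 75.6, 66.7 and 239.5 in delta A, where replicate 4 came close to the wild type. Myc, a driver of cell growth, did not pass, with 294, 427 and 646 CPM in the wild type and 327, 399, 333 and 397 in delta A, a change of -0.36 (SE 0.25, edgeR adjusted p = 0.22). It was the 1 target called against the X Plus wild type, at 529.6 and 453 CPM, with -0.39 (SE 0.11, edgeR adjusted p = 0.039).

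Among signalling targets, levels of vn, the EGF receptor ligand Vein, were 202, 201 and 237 CPM in the wild type and 23.9, 30.4, 29.9 and 87.5 in delta A, a log2 change of -2.34 (SE 0.49, edgeR adjusted p = 0.0019). The Notch ligand gene Ser changed by -1.62 (SE 0.41, edgeR adjusted p = 0.0043), the glypican genes dally and dlp by -1.55 (SE 0.38, edgeR adjusted p = 0.0035) and -1.03 (SE 0.25, edgeR adjusted p = 0.0035), and the apical determinant crb by -1.70 (SE 0.50, edgeR adjusted p = 0.0094). None of these 5 passed against the X Plus wild type, where their changes ran from -0.25 to 0.22. For wg, the Wnt ligand Wingless, delta A was even, at 145, 153, 144 and 145 CPM, and the wild type spread from 147 to 228. Its change of -0.37 (SE 0.15, edgeR adjusted p = 0.042) thus came with overlapping groups. Besides Myc, the targets not called were vg, the wing selector, at -0.67 (SE 0.30, edgeR adjusted p = 0.062), and Mer, the Hippo regulator Merlin, at -0.06 (SE 0.11, edgeR adjusted p = 0.66).

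Of 21 Hippo kinases and regulators, 2 rose and 12 fell against the wild type of the NovaSeq 6000 (median -0.62), and none passed against that of the X Plus (median 0.04). With the rRNA side as a term none passed either, and with the length trend removed 3 rose and 8 fell (median -0.13). Besides ex and kibra, the clearest falls against the wild type of the NovaSeq 6000, without these changes to the fit, were in Pez and sdt. Pez, a phosphatase that works with Kibra, was at -1.57 (SE 0.31, edgeR adjusted p = 0.0014). The gene sdt, for the partner of Crumbs, was at -2.52 (SE 0.50, edgeR adjusted p = 0.0014). Of 11 genes for Yorkie and its nuclear partners 7 fell and none rose against the wild type of the NovaSeq 6000. Against that of the X Plus 2 fell and none rose (median 0.03), or 3 fell without replicate 4. The cofactor gene mask measured 979, 828 and 1015 CPM in the wild type and 169, 179, 188 and 416 in delta A, and tsh, which encodes the zinc finger protein Teashirt, 421, 454 and 507 and 181, 209.9, 198 and 229. In both, all delta A libraries were lower, with log2 changes of -2.01 and -1.21 and adjusted p-values of 0.011 and 0.0018 by edgeR. For mask the sign was opposite against the X Plus wild type.

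Among the 6 core planar polarity genes, 3 fell and none rose, the median being -0.92. None passed with the X Plus reference and the median was -0.04. The gene dsh, for the cytoplasmic adaptor Dishevelled (FBgn0000499, X:11355881-11358724), had 108, 92.9 and 84.9 CPM in the wild type and 8.68, 8.67, 8.10 and 3.49 in delta A. The groups lay about an order of magnitude apart, and the log2 change was -3.76 (SE 1.12, edgeR adjusted p = 0.010). The X Plus wild type had the low level too, 9.31 and 10.5 CPM, and so had delta C at 3.86 to 4.60 and delta F at 2.72 to 3.59. For pk, the cytoplasmic partner Prickle of the transmembrane protein Van Gogh, delta A split into 14.8, 16.4 and 18.2 CPM in replicates 1 to 3 and 67.7 in replicate 4. The wild type had 80.2, 83.2 and 92.9 CPM and the change was -1.57 (SE 0.46, edgeR adjusted p = 0.0093).

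The ankyrin repeat protein gene dgo, Diego, was the third that fell, by 0.81 on the log2 scale (edgeR adjusted p = 0.00016). The receptor genes did not pass. For fz, Frizzled, the change was -0.45 (SE 0.21, edgeR adjusted p = 0.069), for the atypical cadherin gene stan, Starry night, -1.03 (SE 0.46, edgeR adjusted p = 0.066), and for Vang, Van Gogh, -0.28 (SE 0.14, edgeR adjusted p = 0.089). Without replicate 4, 5 of the 6 core genes fell. Where 30.4% of all genes tested rose and 28.1% fell, 4 of 10 planar polarity effectors rose and 4 fell. Among them sqh, the regulatory light chain of non-muscle myosin, rose, with 294, 287 and 274 CPM in the wild type and 721, 688, 693 and 551 in delta A. Every delta A library was higher, with a log2 change of 1.18 (SE 0.29, edgeR adjusted p = 0.0035). With the X Plus reference it was 0.14 (SE 0.09, edgeR adjusted p = 0.34).

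Genes that pattern the disc fell in all 3 of its main regions against the wild type of the NovaSeq 6000. Of 13 pouch genes, which mark the future wing blade, 11 fell and none rose (median -1.39). Of 11 hinge genes 1 rose and 6 fell (median -1.17), and of 13 notum genes 1 rose and 9 fell (median -1.27). With the length trend removed, the pouch, hinge and notum lists had 6, 7 and 4 genes lower and 2, 1 and 3 higher. With the rRNA side as a term they had 1, 0 and 0 lower and 0, 0 and 1 higher. The X Plus reference gave medians of 0.20, -0.03 and 0.16, with 2, 1 and 2 genes lower and 0, 1 and 0 higher. Without replicate 4, 5 pouch, 5 hinge and 4 notum genes were lower than in the X Plus wild type, and the medians were -0.33, -0.29 and -0.33; without replicate 1 no notum gene was. The disc's own markers were thus present in delta A, their summed level being 1101 to 2055 CPM for the pouch list against 3324 to 4161 in the wild type and 1648 to 1728 in the X Plus wild type. In such bulk RNA, fewer cells of a type and less RNA per cell cannot be told apart.

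The pouch gene nub, a POU transcription factor, illustrates the spread within delta A, at 90.0, 117, 166 and 332 CPM against 518, 697 and 733 in the wild type. The groups did not overlap and the log2 change was -1.91 (SE 0.40, edgeR adjusted p = 0.0018). The zinc finger genes rn and dve, for Rotund and Defective proventriculus, followed it with -2.81 and -2.63 (edgeR adjusted p = 0.0013 and 0.00037). One pouch gene was lower than both wild types. For ab, the transcription factor Abrupt, delta A measured 184, 203, 178 and 217 CPM, the wild type of the NovaSeq 6000 471, 510.0 and 528 and that of the X Plus 305 and 299.5. The changes were -1.40 (SE 0.15, edgeR adjusted p = 5.5e-05) and -0.59 (SE 0.10, edgeR adjusted p = 0.0019), while delta C at 167 to 194 CPM and delta F at 162 to 184 overlapped delta A.

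The hinge gene grn, a GATA factor, set replicate 4 well apart, with 17.2, 18.1, 18.4 and 114 CPM in delta A and 439, 302 and 356 in the wild type. Its change of -3.14 (SE 0.66, edgeR adjusted p = 0.0018) therefore averages 2 levels. The hinge gene nab, a transcriptional cofactor, spread over 16.2, 21.5, 45.6 and 91.2 CPM in delta A against 166, 176 and 138 in the wild type, a change of -1.90 (SE 0.38, edgeR adjusted p = 0.0015). On the notum side, tup and toe, a LIM homeodomain and a Pax gene, changed by -1.85 (SE 0.39, edgeR adjusted p = 0.0018) and -2.24 (SE 0.52, edgeR adjusted p = 0.0028). Both had replicate 4 above the other 3, at 12.6 and 37.8 CPM.

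Morphogen pathways gave 9 of 13 genes lower and none higher for Dpp, 11 of 14 lower and 1 higher for Hedgehog, and 12 of 19 lower and 1 higher for Wingless. With the X Plus reference each of these lists had at most 1 gene in either direction. Without replicate 4 that reference gave 2 higher and 3 lower for Dpp, 1 higher and 2 lower for Hedgehog and 3 lower for Wingless. The ligand gene dpp measured 132, 147 and 156 CPM in the wild type and 17.0, 18.7, 15.1 and 71.0 in delta A, and brk, the repressor Brinker of Dpp targets, 272, 233 and 226 and 54.3, 60.2, 64.8 and 76.4. Neither overlapped, with changes of -2.27 (SE 0.48, edgeR adjusted p = 0.0018) and -1.97 (SE 0.24, edgeR adjusted p = 9.8e-05). The Wingless receptor gene fz2 went from 1519.9, 1408 and 1577 CPM to 94.6, 119, 92.4 and 286, a change of -3.37 (SE 0.62, edgeR adjusted p = 0.0011). The posterior selector en, Engrailed, was low in replicates 1 to 3 and intermediate in replicate 4, at 20.5, 21.7, 22.7 and 99.3 CPM, against 131, 151 and 143 in the wild type.

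Of 11 sensory organ precursor genes 6 rose and 1 fell against the wild type of the NovaSeq 6000 (median 1.36). The summed level of the list overlapped, at 271 to 307 CPM in delta A and 237 to 287 in the wild type. The proneural genes ac and sc, Achaete and Scute, changed by 1.61 (SE 0.32, edgeR adjusted p = 0.0014) and 1.78 (SE 0.36, edgeR adjusted p = 0.0015), and neither passed against the X Plus wild type (0.07 and 0.19). The zinc finger gene sens, Senseless, which acts after them, was higher than both. It had 9.14, 10.1, 10.8 and 11.02 CPM in delta A, 4.11, 4.82 and 4.73 in the wild type and 5.69 and 3.18 in the X Plus wild type, with changes of 1.14 (SE 0.22, edgeR adjusted p = 0.0013) and 1.24 (SE 0.22, edgeR adjusted p = 0.0034). Delta C and delta F were as high as delta A, at 8.70 to 10.4 and 7.63 to 11.2 CPM.

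**Figure D4:**
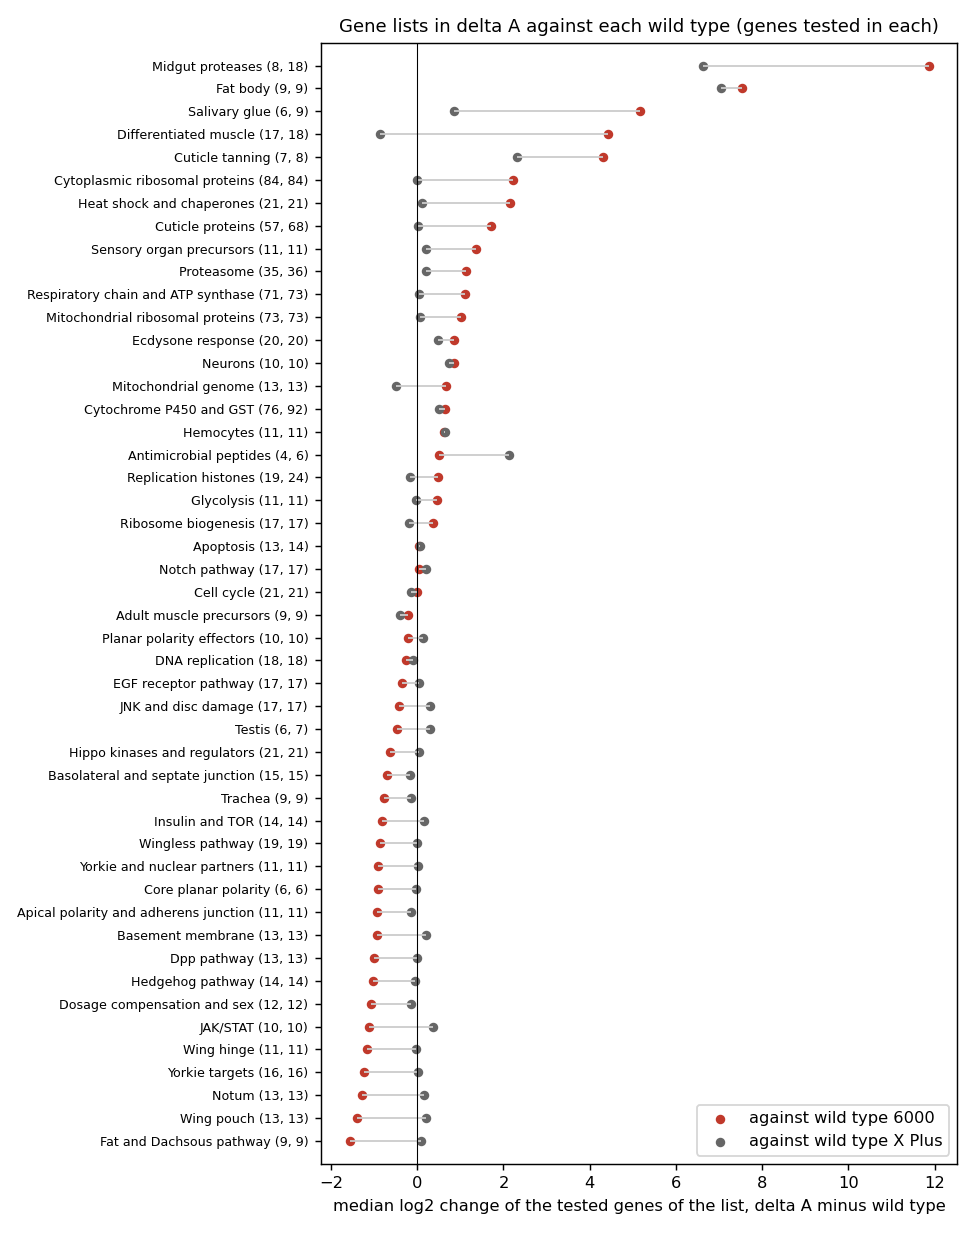
Median log2 change of the tested genes of 48 gene lists in delta A against the wild type of the NovaSeq 6000 and against that of the X Plus, with the numbers tested in brackets; a line joins the pair. Fat body genes lie far to the right against both references, while ribosomal protein, muscle and Fat pathway lists lie near 0 or beyond it against the X Plus wild type.

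The group that stood out against every reference was that of the larval fat body, the storage organ that secretes the major proteins of the hemolymph. Of 9 such genes, 7 rose and none fell against each of the 4 references, with median log2 changes of 7.53 against the wild type of the NovaSeq 6000, 7.05 against that of the X Plus, 9.86 against delta C and 10.57 against delta F. The 7 are the larval serum protein genes Lsp1alpha, Lsp1beta, Lsp1gamma and Lsp2, the fat body protein genes Fbp1 and Fbp2, and the lipoprotein gene apolpp. Of all genes tested, 30.4% rose against the first reference, 6.09% against the second, 4.23% against delta C and 3.49% against delta F. Those of the 7 beyond the 4 of smallest p were named after their values were seen. The other 2 genes of the list, Apoltp and FASN1, did not pass. Without replicate 4, 7 rose against each reference, and 1 fell against the wild type of the NovaSeq 6000, with medians of 5.24, 4.78, 7.95 and 8.45 in the same order.

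The storage protein gene Lsp2 (FBgn0002565, 3L:12129393-12131869) had 5.86, 3.83 and 2.92 CPM in the wild type and 1182, 145, 218 and 4000.3 in delta A. Every delta A library was far above every wild type library, but they differed among themselves by more than an order of magnitude. The log2 change was 8.36 (SE 1.51, edgeR adjusted p = 0.00097), and 7.94 (SE 1.47, edgeR adjusted p = 0.0041) against the X Plus wild type at 5.00 and 6.89 CPM. Fbp1, the receptor through which fat body cells take the serum proteins back up (FBgn0000639, 3L:14094589-14098053), measured 6.71, 3.35 and 0.686 CPM in the wild type and 1798, 186, 215 and 1478 in delta A. Fbp2 was the 1 gene of the 7 that the X Plus wild type held above 10 CPM, at 21.1 and 28.5, and delta A was higher still at 598, 133, 205 and 1254. The apolipoprotein gene apolpp was at 119.8, 17.4, 16.6 and 532 CPM against 1.15, 0.907 and 1.99. Replicates 1 and 4 were the higher 2 for all 7 genes, and replicate 4 the highest for all but Fbp1.

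Summed over the 9 genes, the fat body list came to 4382, 696, 1024 and 15615 CPM in delta A replicates 1 to 4, against 41.2 to 123 in the wild type, 69.5 to 94.5 in the X Plus wild type, 19.1 to 28.3 in delta C and 35.3 to 51.2 in delta F. Libraries of other lines reached the same level. Over the other 38 libraries the sum ran from 19.1 to 14292 CPM, the highest being a library of the PCP line. The part that fat body tissue plays in the result was not tested. The gene fon, a hemolymph clotting factor gene named after its values were seen, moved with them, at 100.4, 19.3, 27.8 and 658 CPM in delta A and 0.103 to 0.428 in the wild type.

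**Figure D5:**
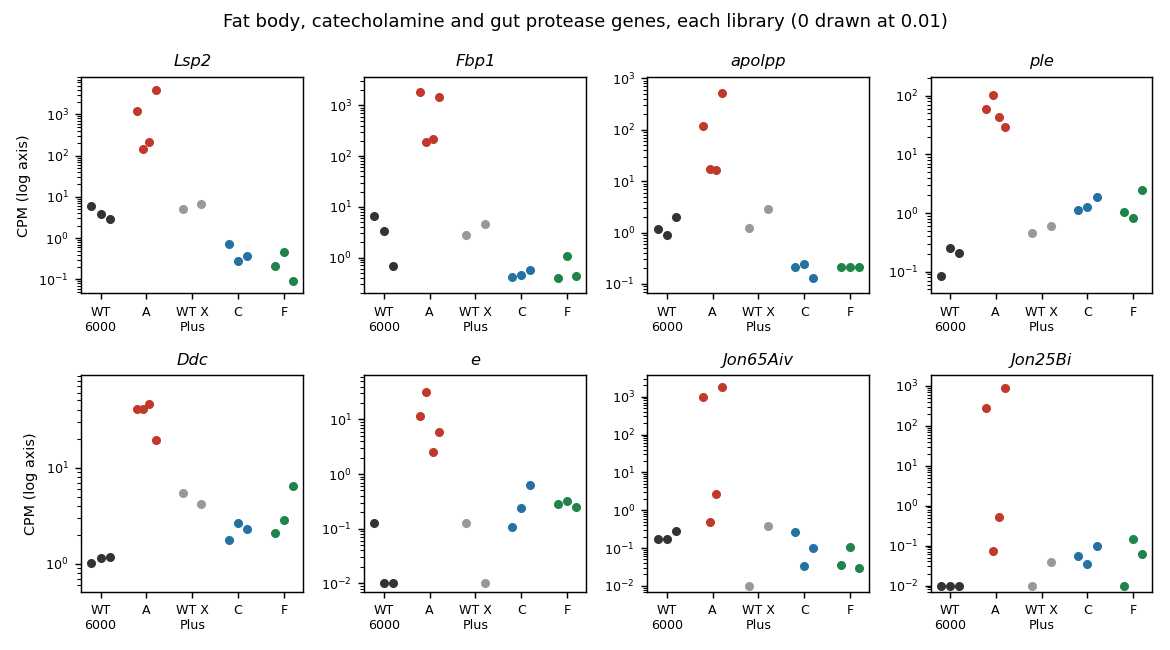
CPM on a log axis for 8 genes, 1 point per library, in 5 groups; a value of 0 is drawn at 0.01. For Lsp2, Fbp1, apolpp, ple, Ddc and e all 4 delta A libraries lie above all others shown, and for Jon65Aiv and Jon25Bi only replicates 1 and 4 are high.

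Digestive protease genes of the midgut were high in fewer libraries. Most of the 23 were too low to test, and a gene low in most libraries enters the test only through those in which it is high, so no count of calls is given. The list's sum was 4139, 2.30, 8.10 and 6925 CPM in delta A replicates 1 to 4, against 0.556 to 1.02 in the wild type. Replicates 1 and 4 held nearly all of it, and replicates 2 and 3 were within a few CPM of the wild type. These are the same 2 libraries that were highest for the fat body genes. Jon65Aiv, a serine protease gene and 1 of the largest rises in the comparison, stood at 981, 0.474, 2.70 and 1819.8 CPM in delta A and 0.171, 0.170 and 0.274 in the wild type. Jon65Aiii had 848, 0.182, 0.643 and 1463, deltaTry 512, 0.510, 1.499 and 963 and yip7 1491, 0.182, 0.814 and 1562 CPM in delta A. Jon25Bi, with 274, 0.0729, 0.514 and 909 CPM, was at 0 in all 3 wild type libraries, so delta A was at least 7343-fold higher, taking 3 counts over the wild type group as the floor. Without replicate 4 that limit was 2894-fold. Floors and intervals of this kind cover counting error only. In the other 38 libraries the sum of the list reached at most 158 CPM, and the part that midgut tissue plays in delta A was not tested.

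Markers of other tissues that a dissected disc may carry did not rise together. Salivary glue genes had sums of 155, 205, 99.0 and 74.4 CPM in delta A against 0.103 to 11.1 in the wild type of the NovaSeq 6000, and for the same reason no count is given there. The X Plus wild type had 34.6 to 92.2 CPM, and against it none rose and 2 fell of 9, or 0 without replicate 1. Sgs7, a glue protein gene, was at 38.2, 73.0, 24.2 and 25.2 CPM in delta A and 9.82 and 32.2 in the X Plus wild type. Of 17 differentiated muscle genes 15 rose and none fell (median 4.42), while against the X Plus wild type none of 18 passed (median -0.86). The troponin gene TpnC73F went from 0.428, 1.28 and 1.23 CPM to 98.4, 73.5, 99.1 and 61.2, and the muscle actin gene Act57B from 2.52, 8.08 and 5.69 to 132, 71.2, 143 and 134; the X Plus wild type was at 118 and 151 and 157 and 309. The summed level of the muscle list overlapped all the same, at 2072 to 2962 CPM in delta A and 2097 to 3790.0 in the wild type.

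Of 11 hemocyte genes 5 rose and none fell, with sums of 204 to 419 CPM in delta A and 199.98 to 248 in the wild type. The prophenoloxidase gene PPO1, which marks crystal cells, was at 77.7, 21.4, 20.5 and 21.8 CPM with replicate 1 apart. Tracheal markers were lower, 5 of 9 with none higher, and verm, a chitin deacetylase gene, changed by -0.97 (SE 0.17, edgeR adjusted p = 0.00072). Of 10 neuronal genes 4 rose and 2 fell. The synaptic vesicle gene Syt1 was higher than all 4 references, with 7.49, 2.22, 1.93 and 5.67 CPM in delta A, 0.599, 0.255 and 0.686 in the wild type and 0.385 and 0.459 in the X Plus wild type. Its changes were 3.04 (SE 0.57, edgeR adjusted p = 0.0011) and 3.40 (SE 0.63, edgeR adjusted p = 0.0042) against the wild types. Adult muscle precursor genes gave 2 up and 4 down of 9, and testis genes 1 up and 1 down of 6. Summed levels were 2542 to 3071 CPM in delta A against 4949 to 5641 for trachea, and 277 to 316 against 247 to 389.6 for neurons. The X Plus wild type gave 1 of 9 tracheal genes lower and 2 of 11 hemocyte genes higher, or 1 higher and 2 lower without replicate 1. It gave 3 neuronal genes higher and 1 lower of 10, 1 of 9 muscle precursor genes lower and 0 of 7 testis genes. Its sums were 2921 to 3046 CPM for trachea, 400 to 438 for hemocytes and 375 to 402 for neurons, the last above all of delta A.

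Catecholamine genes that serve cuticle tanning formed a second group higher against every reference. Of 7 tested against the wild type of the NovaSeq 6000, 6 rose and 1 fell. Against the X Plus wild type it was 5 up and 1 down of 8, and against delta C and against delta F 4 up and none down of 7. The median log2 changes in that order were 4.31, 2.31, 4.02 and 3.28. As with the gut proteases, a gene low in most libraries enters the test only through those in which it is high. These counts are therefore not to be set against the shares over all genes. The list's sum was 170, 241, 141 and 114.97 CPM in delta A replicates 1 to 4 and 74.6 to 82.9 in the wild type. Over the other 38 libraries it reached 153 CPM, in a library of the PCP line, above delta A replicates 3 and 4. The gene ple, tyrosine hydroxylase, the rate-limiting step of dopamine synthesis (FBgn0005626, 3L:6713356-6719525), had 60.3, 104, 43.1 and 29.9 CPM in delta A. In the wild type it had 0.0855, 0.255 and 0.206, in the X Plus wild type 0.462 and 0.612, in delta C 1.12 to 1.87 and in delta F 0.834 to 2.47. No library of these references came near the lowest of delta A, and over the other 38 libraries the highest was 21.1 CPM.

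For ple the log2 change was 8.22 (SE 0.99, edgeR adjusted p = 9.6e-05) against the wild type of the NovaSeq 6000 and 6.83 (SE 0.78, edgeR adjusted p = 0.00014) against that of the X Plus. With the side of the rRNA share as a term it was 7.80 (SE 1.35, edgeR adjusted p = 0.0046), and with the length trend removed 8.91 (SE 1.03, edgeR adjusted p = 4.8e-05). Among genes with a mean of at least 50 counts in the higher group and a name other than a number, ple was the 1 that passed in the same direction against both wild types, here with all 42 libraries in the fit for the second, and with each of these 2 corrections. Ddc, dopa decarboxylase, the next enzyme, stood at 41.1, 40.5, 45.3 and 19.4 CPM in delta A, 1.03, 1.16 and 1.17 in the wild type and 5.46 and 4.17 in the X Plus wild type. Its changes were 4.98 (SE 0.84, edgeR adjusted p = 0.00069) and 2.96 (SE 0.64, edgeR adjusted p = 0.0090). Ebony, which couples dopamine to beta-alanine, is encoded by e, and e had 11.7, 31.9, 2.57 and 5.84 CPM in delta A. In the wild type it held 3 counts in all, which gave a ratio of 412 with an exact 95% counting interval of 141 to 2002, or of 208 without replicate 2. Fat body genes were higher in the same 4 libraries, but in another order. Replicate 4 had the lowest tanning sum and the highest fat body sum, 15615 CPM. Replicate 2 had the highest tanning sum and the lowest fat body sum, 696 CPM. The salivary glue sums, 155, 205, 99.0 and 74.4 CPM in replicates 1 to 4, ranked the libraries as the tanning sums did. The part of either tissue in the result was not tested.

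Ecdysone, the steroid that times moulting and metamorphosis, acts through a cascade of nuclear receptors and effectors. Of 20 response genes 11 rose and 6 fell against the wild type of the NovaSeq 6000, and 9 rose and 1 fell against that of the X Plus. Against delta C and against delta F it was 1 up and none down. The secreted protein gene ImpE2 measured 4492, 4497, 5127 and 5008 CPM in delta A, 451, 400.2 and 563 in the wild type and 2585 and 1338 in the X Plus wild type. Its changes were 3.31 (SE 0.54, edgeR adjusted p = 0.00056) and 1.33 (SE 0.29, edgeR adjusted p = 0.011). ImpE3 followed, with 2.59 (SE 0.43, edgeR adjusted p = 0.00058) and 1.56 (SE 0.33, edgeR adjusted p = 0.0081). In delta C and delta F, ImpE2 was as high or higher, at 5397 to 8495 and 3872 to 6896 CPM.

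The nuclear receptor gene Hr4, named after its values were seen, had 160.1, 141, 139 and 249 CPM in delta A against 8.60, 7.91 and 24.1 in the wild type and 10.4 and 6.39 in the X Plus wild type. Its changes were 3.63 (SE 0.86, edgeR adjusted p = 0.0031) and 4.40 (SE 0.61, edgeR adjusted p = 0.00065), and delta C overlapped it at 119.5 to 273 CPM. The receptor subunits themselves fell against the wild type of the NovaSeq 6000, EcR by 1.76 and usp by 1.64 on the log2 scale (edgeR adjusted p = 0.00088 and 0.0013). Neither passed against the X Plus wild type. Eip74EF, an Ets factor gene of the early response, also chosen after its values were seen, passed in opposite directions. It was -2.54 against the wild type of the NovaSeq 6000 and 1.86 against that of the X Plus (edgeR adjusted p = 0.0022 and 0.010). Delta A lay at 35.2 to 65.6 CPM, between 13.3 to 16.4 and 281 to 317.

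Both chinmo and Atf3, transcription factor genes of the disc damage list, were lower than both wild types. For chinmo, a regulator of temporal identity, delta A had 21.5, 28.5, 23.9 and 40.7 CPM, the wild type 209.6, 226 and 301 and the X Plus wild type 73.7 and 108, with changes of -3.13 (SE 0.66, edgeR adjusted p = 0.0019) and -1.62 (SE 0.36, edgeR adjusted p = 0.011). Atf3, a bZIP factor gene, had 9.24, 12.7, 11.1 and 11.7 CPM in delta A, 54.4, 57.8 and 64.6 in the wild type and 29.8 and 35.5 in the X Plus wild type, with changes of -2.44 (SE 0.52, edgeR adjusted p = 0.0020) and -1.50 (SE 0.30, edgeR adjusted p = 0.0057). All 4 delta A libraries were below both wild types for each gene. Delta C and delta F were not distinguished from delta A for either, the 4 adjusted p-values by edgeR lying between 0.53 and 0.89.

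Heat shock and chaperone genes rose in 11 of 21 cases and fell in 2 against the wild type of the NovaSeq 6000 (median 2.15), and rose in 4 and fell in 2 against that of the X Plus (median 0.12). Without replicate 4 the second count was 7 up and 2 down, and without replicate 1 it was 4 up and none down. The small heat shock gene Hsp26 had 41.6, 33.8 and 33.1 CPM in the wild type and 476, 801, 649.7 and 325 in delta A, and Hsp27 changed by 2.15 (SE 0.44, edgeR adjusted p = 0.0016). The small heat shock protein gene l(2)efl went from at most 0.0855 to 5.76 to 11.1 CPM. A gene as low as this in the wild type enters the test only through libraries in which it is high, which limits the counts above. Hsc70-4, the main constitutive Hsp70, was split within delta A and is named after its values were seen. It had 99.0, 94.1, 114 and 4732 CPM in delta A, 15820.5, 10986 and 10689.7 in the wild type and 83.3 and 109 in the X Plus wild type. Replicates 1 to 3 were near the X Plus wild type in level, while replicate 4 was nearer to delta C, at 3635 to 6534 CPM.

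Housekeeping machinery rose almost as a block against the wild type of the NovaSeq 6000. Of 84 cytoplasmic ribosomal protein genes 78 rose and none fell (median 2.23), of 73 mitochondrial ribosomal protein genes 62 and none (median 1.02), and of 35 proteasome genes 30 and none (median 1.14). Of 71 genes of the respiratory chain and ATP synthase 59 rose and 1 fell (median 1.11). Against the X Plus wild type the same 4 lists gave 0 up and 2 down, 0 and 1, 4 and 1, and 3 and 0, with medians from -0.01 to 0.21. Without replicate 4 the counts against the X Plus wild type were 5 up and 7 down of 84 for the cytoplasmic ribosome, 14 and 3 of 73 for the mitochondrial ribosome, 22 and 1 of 36 for the proteasome and 15 and 2 of 72 for the respiratory chain and ATP synthase, so the low counts depended on that library. Against the wild type of the NovaSeq 6000, leaving it out added 3 falls for the cytoplasmic ribosome and brought those of the respiratory chain and ATP synthase to 5. The small subunit gene RpS3A had 589.8, 805 and 729 CPM in the wild type, 4310.2, 4485, 3883 and 2511 in delta A and 4245 and 4344 in the X Plus wild type. Replicate 4 was the lowest of delta A here, and also for mRpL53 of the mitochondrial ribosome and Rpn3 of the proteasome, at 36.6 and 273 CPM. Ribosomal protein genes have short transcripts as a rule, and the length gradient described above moves with the result; its part was not tested gene by gene. With the length trend removed, 74 of the 84 cytoplasmic ribosomal protein genes still passed upward, and with the rRNA side as a term none did.

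Transcripts of the mitochondrial genome gave 1 of 13 up against the wild type of the NovaSeq 6000, and 4 of 13 down against each of the X Plus wild type and delta C, the latter 2 without replicate 4. The exception upward was mt:ND3, a subunit of complex I, with 13.3, 17.9, 10.4 and 3.82 CPM in delta A and 0.641, 1.16 and 3.09 in the wild type; in the X Plus wild type it was at 30.7 and 34.7 and in delta C at 48.6 to 64.0. Cuticle protein genes rose in 27 and fell in 8 of 57, with the limit for low genes given above for the heat shock counts. Cpr78E had 28.7, 32.2, 39.5 and 16.6 CPM in delta A against 1.33, 0.794 and 1.27 in the wild type. The X Plus wild type had 16.7 and 11.2 CPM. Cytochrome P450 and glutathione S-transferase genes rose in 31 and fell in 8 of 76, and against the X Plus wild type in 13 and 2 of 92, or 17 and 6 of 87 without replicate 4.

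The largest fitted changes came from genes at or near 0 in 1 group. Groups did not overlap for 61.8% of all genes tested, so absence of overlap alone does not single a gene out. Besides the gut proteases, the largest rises were Pif1B, Gnmt, Lcp65Ab2 and Cyp4s3, which had no count in the 3 wild type libraries. Pif1B had 15.3, 17.1, 12.5 and 31.8 CPM in delta A, at least 533-fold higher, and the X Plus wild type had it too, at 14.2 and 9.33 CPM. Gnmt, which encodes glycine N-methyltransferase, had 0.560, 0.437, 2.10 and 33.8 CPM, at least 209-fold higher, or at least 28.4-fold without replicate 4, and no count in delta C or delta F. The cuticle gene Lcp65Ab2 had 8.61, 1.86, 3.90 and 7.42 CPM against 16.9 and 43.2 in the X Plus wild type. For the cytochrome P450 gene Cyp4s3, at 1.44, 0.146, 0.771 and 13.7 CPM, all 4 references were at 0. Decay, a caspase gene named after its values were seen, had 3.01, 0.474, 0.600 and 10.6 CPM and none in either wild type. For Gnmt and Cyp4s3, replicate 4 was the highest by far.

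The largest falls were mostly genes with no count in any of the 4 delta A libraries. The sodium channel gene ppk13 had 55.3, 72.7 and 63.8 CPM in the wild type and no count in delta A, at least 2119-fold lower with 3 counts over the delta A group as the floor. It also had no count in the X Plus wild type and at most 0.0725 CPM in delta C and delta F. The gene Slob, whose product binds a potassium channel, was at 0.128, 2.98 and 6.45 CPM in the wild type, and lectin-46Ca at 4.83, 2.07 and 2.16, both with no count in delta A. Cyp6a17, a cytochrome P450 gene, had 32.6, 10.7 and 6.96 and 0.105, 0, 0 and 0.327 CPM. These 4 were at 0 in both X Plus wild type libraries too. Sdic2, a dynein intermediate chain gene of a cluster of near-identical copies whose reads the counting may split uncertainly, was different. It had 32.2, 18.3 and 22.6 CPM in the wild type and 11.5 and 13.3 in the X Plus wild type, and none in delta A. Spn47C, a serpin gene, was at 0.599, 11.9 and 15.1 CPM in the wild type, 0.923 and 0.383 in the X Plus wild type and 0, 0, 0.171 and 0 in delta A.

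Snap24, a SNARE gene of membrane fusion named after its values were seen, separated delta A from both wild types with little spread. It measured 3.71, 3.21, 4.46 and 3.16 CPM in delta A, 46.2, 41.0 and 46.7 in the wild type and 32.7 and 30.9 in the X Plus wild type, with changes of -3.65 (SE 1.10, edgeR adjusted p = 0.011) and -3.09 (SE 0.16, edgeR adjusted p = 2.1e-08). Delta C and delta F were as low as delta A, at 2.15 to 2.95 and 1.71 to 1.99 CPM. With the rRNA side as a term the sign turned, to 1.49 (SE 0.20, edgeR adjusted p = 0.00096). That term rests on delta B replicate 4 and delta E replicate 4.

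Contrasts with the 2 other conserved-region lines, which share the 4 delta A libraries, use no wild type library. Against delta C 638 of 10338 genes passed (6.17%), 437 up (4.23%) and 201 down (1.94%), and against delta F 514 (4.97%), 361 up (3.49%) and 153 down (1.48%), in the same fit by edgeR. Without replicate 4 falls outnumbered rises, with 277 up and 442 down against delta C and 345 up and 539 down against delta F. Leaving out delta A replicate 1, 2 or 3 gave 344, 362 and 380 calls against delta C and 257, 389 and 385 against delta F. Leaving out 1 library of the other line, replicates 1 to 3 in turn, gave 119, 32 and 74 for delta C and 54, 61 and 100 for delta F. Both counts thus fell without any 1 library except delta A replicate 4, without which they rose to 719 and 884. The fat body, gut protease and tanning genes above were among the rises against both. For the Fat pathway list none of 9 passed against either line. No Yorkie target and no core planar polarity gene passed against either, with medians of 0.20 and 0.39 against delta C and -0.02 and 0.14 against delta F. Without replicate 4, 1 Fat pathway gene, 2 Yorkie targets and 1 core planar polarity gene were lower than in delta C, and the same numbers were lower than in delta F. For ex, delta C at 98.7, 102 and 109 CPM was below all 4 delta A libraries and delta F at 236, 243 and 203 among them, and the changes were 1.08 (SE 0.54, edgeR adjusted p = 0.20) and -0.01 (SE 0.53, edgeR adjusted p = 0.998). These calls come from the fit of 21 libraries. With only the 14 of the sequencer above 3%, 4049 of 10801 genes passed against delta C and 1719 against delta F. A gene not called in the larger fit is therefore not shown to be equal between the lines.

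Of 6 genes named because they were lower in delta A than in the wild type of the NovaSeq 6000, delta C and delta F alike, 5 had replicate 4 far above the other 3. The homeobox gene E5 had 3.85, 5.18, 7.45 and 61.7 CPM in delta A, 123, 94.8 and 89.4 in the wild type, 63.0 to 117 in delta C and 112 to 131 in delta F. In delta A 3 libraries were low and replicate 4 was just under the lowest of delta C. GstS1, a glutathione S-transferase gene, gave 91.9, 109, 180.2 and 501 CPM, SF2, a splicing factor gene, 62.2, 68.7, 96.0 and 381, and Bacc 184, 209, 169 and 1005, with mldr at 2.91, 2.73, 2.23 and 14.2. In each of these 4, replicate 4 was the highest of delta A by far. Rab9, a GTPase gene of vesicle traffic, kept all 4 libraries low, at 0.315, 0.328, 1.37 and 2.40 CPM against 4.03 to 5.18 in delta C and 4.82 to 5.69 in delta F. Against the X Plus wild type none of these 6 passed, with 6.77 and 5.39 CPM for E5 and 0.590 and 1.03 for Rab9.

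Against all 4 references, which share the 4 delta A libraries, 102 genes passed in the same direction, 97 up and 5 down. Both Debcl and otk2, among those 5, were lower with little spread, and they were chosen after their values were seen. Debcl, a Bcl-2 family gene of cell death, had 50.6, 51.9, 51.3 and 46.3 CPM in delta A and 85.8, 83.7 and 70.1 in the wild type. Its log2 changes were -0.71 (SE 0.10, edgeR adjusted p = 0.00020) against the wild type of the NovaSeq 6000, -0.48 (SE 0.09, edgeR adjusted p = 0.0037) against that of the X Plus, -0.44 (SE 0.10, edgeR adjusted p = 0.019) against delta C and -0.48 (SE 0.10, edgeR adjusted p = 0.011) against delta F. The Wnt co-receptor gene otk2 had 27.6, 26.3, 29.3 and 27.5 CPM in delta A and 48.8, 48.6 and 38.1 in the wild type, with changes of -0.74, -0.36, -0.45 and -0.53 in the same order (edgeR adjusted p = 0.00028, 0.034, 0.025 and 0.011). Unlike most genes above, all 4 delta A libraries, replicate 4 included, lay below every library of those groups for both.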

How the data were processed

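The submitters' processing notes name Salmon 1.80, Trimmomatic 0.33, FastQC 0.10, edgeR and the dm6 build, without settings; the authors deposited estimated counts per gene, not normalized, for 17208 genes, and the estimator is not otherwise stated. Here they were rounded to whole numbers. Low genes were removed with filterByExpr, libraries scaled by TMM, and groups compared with edgeR 4.0.16 quasi-likelihood tests (R 4.3.3) in 1 fit of the 21 libraries of the NovaSeq 6000, with no covariate. CPM use 1 TMM scaling of all 42 libraries. SE is the absolute log2 change over the root of the F statistic. Transcript lengths and coordinates come from the Ensembl BDGP6 annotation, matched by gene ID for 17083 genes. The rRNA share used an exact permutation test. Alternatives were DESeq2 1.42.0, other filters, scalings, samples, references and terms. Named genes were the largest changes past adjusted p = 0.05 with at least 50 mean counts and no overlap, members of 48 gene lists, or as stated. Members and lists were chosen with earlier results of these data known, and the fit of libraries above 3% with the X Plus wild type was added after the data were seen. The test was checked on simulated data. Strandedness is not given in the sources used here, so overlapping and antisense genes are uncertain.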

Additional observations from a re-analysis of the deposited data

Results flagged for a closer look

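Among the 105 values examined over the 4 delta A libraries, 35 had 1 library whose gap to its nearest neighbour took up most of the group's range. Of the 35, 31 were delta A replicate 4. All items share the 4 libraries, and some were named after their values were seen. The count therefore cannot be set against the about 1 group in 20 that chance flags. Replicate 4 was the high library for dco 35.7, Fbxl7 39.1, ex 313, kibra 60.9, E2f1 239.5, vn 87.5, pk 67.7, stan 114, mask 416, rn 139.8, dve 69.2, grn 114, tup 12.6, toe 37.8, dpp 71.0, fz2 286, en 99.3, Lsp1gamma 3869, Lsp1alpha 1288, Lsp1beta 3055, Hsc70-4 4732, Gnmt 33.8, Cyp4s3 13.7, E5 61.7, mldr 14.2, Bacc 1005, SF2 381 and fon 658 CPM. It was the low library for dsh 3.49, ImpE3 93.8 and mRpL53 36.6 CPM. Replicate 2 was apart for wg 153 and Act57B 71.2 CPM, replicate 1 for PPO1 77.7 CPM and replicate 3 for Spn47C 0.171 CPM. For Hsc70-4 the other 3 libraries lay between 94.1 and 114 CPM, and for grn between 17.2 and 18.4.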

How the results depend on the processing

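Counts of called genes depended on the reference and the terms. Against the wild type of the NovaSeq 6000 the 6041 calls became 436 with the rRNA side as a term, of which 276 were among the 6041 in the same direction. With the X Plus wild type they became 12 in a fit of all 42 libraries, 1202 among libraries above 3% (714 of the 6041 in the same direction, 61 opposite) and 111 in a fit of those 2 groups. DESeq2 size factors, no filter, the DESeq2 test, the 2 groups alone, rRNA genes removed and the length trend removed gave 4884 to 6214. Leaving out 1 library gave 4834 to 6097. For delta C the 638 became 1575 with DESeq2, 2384 with the 2 groups alone, 1470 with the length trend removed, 3944 with the side term and 4049 in the 14 libraries of the sequencer above 3%, and 32 to 719 without 1 library. For delta F the 514 became 922, 801, 1097, 1712 and 1719 in that order, and 54 to 884 without 1 library. The 1202 against the X Plus wild type ranged from 205 to 2037 without 1 library. The difference in rRNA share stayed between 13.6 and 14.7 points. Replicate numbers did not pair the samples: same-numbered libraries had mean correlations of -0.02, 0.03 and -0.04 with the wild type, delta C and delta F, and the replicate block gave 5740, 505, 676 and, for the X Plus wild type, 888 calls.

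Changes of sign, in log2, were as follows, and the cause was not tested. With the rRNA side as a term: ft 0.22, ds 0.65, fj 0.078, dally 0.083, Ser 0.091, crb 0.45, vg 0.204, dsh 1.28, Vang 0.083, stan 0.86, mask 0.69, Snap24 1.49 and mt:ND3 -1.85. With the length trend removed: ft 0.505, fj 0.013, Mer 0.44, Myc 0.94, vg 0.0086, fz 0.23, Vang 0.26 and stan 0.18. With the X Plus wild type among libraries above 3%: ft 0.083, ds 0.28, dco 0.61, Fbxl7 1.08, ex 0.017, kibra 0.22, Diap1 0.297, CycE 0.036, E2f1 0.46, vn 0.18, crb 0.22, Vang 0.080, pk 1.23, stan 0.38, mask 0.298, nub 0.196, rn 0.55, dve 0.44, grn 0.65, toe 0.88, dpp 0.44, fz2 0.058, en 1.05, TpnC73F -0.66, Act57B -0.91, PPO1 -1.36, usp 0.17, Eip74EF 1.86, Hsc70-4 3.798, RpS3A -0.14, Lcp65Ab2 -2.41, E5 1.74, Rab9 0.47, mldr 1.44, GstS1 0.53, Bacc 0.75, SF2 0.603 and mt:ND3 -1.49. With it in all 42 libraries: ft 0.034, ds 0.23, dco 0.56, Fbxl7 1.03, kibra 0.17, Diap1 0.26, E2f1 0.399, vn 0.13, crb 0.17, Vang 0.037, pk 1.18, stan 0.33, mask 0.24, nub 0.14, rn 0.49, dve 0.38, grn 0.59, toe 0.83, dpp 0.39, fz2 0.0041, en 0.99, TpnC73F -0.696, Act57B -0.96, PPO1 -1.397, usp 0.11, Eip74EF 1.81, Hsc70-4 3.71, RpS3A -0.18, Lcp65Ab2 -2.46, E5 1.68, Rab9 0.43, mldr 1.402, GstS1 0.47, Bacc 0.68, SF2 0.54 and mt:ND3 -1.52. Of the named genes, none changed sign with DESeq2, no filter, the replicate block or 1 library left out. Genes near 0 in a group are limited by depth, with 3 counts as the floor.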

Other observations

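Further gene groups, described only by counts, gave more calls against the wild type of the NovaSeq 6000 than against that of the X Plus. The counts past the threshold against the wild type of the NovaSeq 6000 were 9 lower and 1 higher of 11 apical polarity and adherens junction genes, 11 lower and 1 higher of 15 basolateral and septate junction genes, 9 lower and 2 higher of 14 insulin and TOR genes, 7 lower and 1 higher of 10 JAK/STAT genes and 8 lower and 1 higher of 12 genes of dosage compensation and sex determination. With the X Plus wild type the same groups, in that order, had 3, 3, 1, 1 and 1 genes lower, with medians between -0.18 and 0.36. Without replicate 4 those counts were 4, 6, 1, 1 and 3. Glycolysis genes rose in 4 of 11 cases against the first reference and fell in 2 of 11 against the second.

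Cell cycle genes moved both ways, 10 lower and 6 higher of 21, and against the X Plus wild type 6 of 21 fell with none higher, where 4.79% of all genes fell. Without replicate 1 that count was 3 of 21. Those 6, named after their values were seen, were CycA, CycB3, polo, fzr, Dp and dap, with roles in mitosis, cycle exit and entry into S phase. The list median there was -0.15. Replication histone genes gave 5 lower and 4 higher of 19 against the wild type of the NovaSeq 6000 and 3 lower and 1 higher of 24 against that of the X Plus; their copies are nearly identical, so their counts are uncertain. Antimicrobial peptide genes, the humoral defence of the fat body, were mostly too low to test, and of the 4 of 18 that could be tested 1 rose.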
